A study of Mus musculus with 1073 samples.

Results

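The 8 Krüppel-like factor genes listed for this work, *Klf1*, *Klf2*, *Klf3*, *Klf4*, *Klf6*, *Klf7*, *Klf10* and *Klf13*, were followed through 13 sorted populations of mouse yolk sac cells, and all 8 are among the 15967 genes of the filtered tables. The list was chosen by name, with earlier results of these data known. It gave *Klf1* and *Klf3* as erythroid, *Klf2* as endothelial and *Klf4* and *Klf6* as myeloid. Each library was 1 cell captured on the Fluidigm C1 system, and 926 of 1073 captured cells passed the authors' filter. At E7.25 (73 and 74 cells in 2 captures) and E7.75 (53 and 87 cells), *Flk1*-GFP+ cells were sorted from yolk sacs of embryos with 1 *Flk1*-GFP allele, in which GFP is expressed from the *Flk1* (*Kdr*) locus. The later cells came from C57BL/6 embryos. Haematopoietic progenitor/colony forming cells (HPC), which the labels call erythro-myeloid progenitors, were TER119-CDH5+CD41+ at E8.25 (73 cells) and E8.5 (89 cells) and TER119-CDH5-CD45+CD41low at E9.5 (46 cells) and E10.5 (87 cells). Primitive erythroid cells (EryP) were TER119+ cells without CD41 or CDH5 at E8.5 (66 cells) and also without CD45 at E10.5, where 3 of 25 captured cells passed the filter. Megakaryocytes (Mk) were TER119-CDH5-CD41+ at E8.5 (37 cells) and TER119-CDH5-CD45-CD41high at E10.5 (73 cells). Macrophages (Mac) were CD45+ cells without TER119, CDH5 or CD41 at E10.5 (25 cells), and endothelial cells (Endo) were CDH5+ cells without TER119 or CD41 at E8.5 (79 cells) and also without CD45 at E10.5 (61 cells).

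Krüppel-like factors are zinc finger transcription factors whose fingers bind CACCC boxes and GC-rich elements, and the family holds activators and repressors that compete for the same sites. *Klf1* (EKLF) switches on globin, haem synthesis and red cell membrane genes, and *Klf3* recruits the CtBP co-repressors to CACCC boxes. *Klf2* and *Klf4* are known in endothelium as genes induced by blood flow through the MEKK3, MEK5, ERK5 and MEF2 cascade, *Klf6* is an early response gene of injury and of macrophages, *Klf10* is an early target of TGF-β signalling, and *Klf7* and *Klf13* are widely expressed members.

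Yolk sacs were pooled, and the embryo behind a cell is not named, so each population is 1 sample and the cells are not replicates of it. No test between populations was therefore made, and the exact binomial intervals given for shares of cells cover counting error only. Levels are means over cells of CPM, the read counts of a gene relative to the cell's depth, for which the authors used a size factor per cell, and a cell counted as positive at 1 read count or more. Total counts per cell had a median of 1555237 to 3536330 in each population. One flow cell held E7.25 together with E8.25 and E8.5, and a different flow cell held E7.75 together with E9.5 and E10.5. Stage and flow cell therefore cannot be told apart where a comparison crosses them. Populations compared within a flow cell were on different lanes, so population and lane cannot be told apart there. Tissue was released with trypsin for the *Flk1*-GFP+ sorts and with collagenase/dispase for the later ones. The gates held their defining markers, but some also held many erythroid transcripts. E8.5 Mk cells had a mean summed level of 34560 CPM of 5 erythroid markers beside 389 CPM of 5 megakaryocyte markers, which reached 6125 CPM in E10.5 Mk. E8.25 and E8.5 HPC had means of 4473 and 3754 CPM of the erythroid markers, with medians of 89.6 and 135.5 CPM. Their means for 4 progenitor markers (*Runx1*, *Kit*, *Gata2* and *Myb*) were 375 and 428 CPM. Transcripts of both sexes were found in 293 cells (31.6%), among them 59 of 79 E8.5 Endo cells, and 2-fold calls that changed without such cells are given both ways.

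The *Klf1* gene lies on chromosome 8 (84901928 to 84905291, plus strand, GRCm38) and *Klf2* also on chromosome 8 (72319033 to 72321656, plus strand). The other members lie on chromosomes 5 (*Klf3*), 4 (*Klf4*), 13 (*Klf6*), 1 (*Klf7*), 15 (*Klf10*) and 7 (*Klf13*). Other annotated genes overlap *Klf3* (2 genes), *Klf7* (3 genes) and *Klf13* (2 genes), mostly on the opposite strand. The Nextera XT libraries keep no strand, so reads of shared exons cannot be told apart. RefSeq promoter windows of GRCm38.p6, 250 bases before to 50 after the start, were found for 7 members, *Klf10* being the exception. The windows of *Klf1*, *Klf2* and *Klf3* are shown as those of the members known for erythroid genes, for endothelium and for CtBP binding. Capitals mark CACCC or its complement GGGTG, the core of the site that the factors themselves bind, and GATAA or its complement TTATC, the core of a GATA factor site.

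Klf1 promoter, chr8:84901732-84902031, plus strand: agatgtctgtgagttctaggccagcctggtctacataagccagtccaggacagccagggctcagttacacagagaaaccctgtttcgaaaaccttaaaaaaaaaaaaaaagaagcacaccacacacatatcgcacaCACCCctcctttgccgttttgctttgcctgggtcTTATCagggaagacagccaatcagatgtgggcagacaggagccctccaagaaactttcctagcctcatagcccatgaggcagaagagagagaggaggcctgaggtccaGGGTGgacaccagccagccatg
Klf2 promoter, chr8:72318812-72319111, plus strand: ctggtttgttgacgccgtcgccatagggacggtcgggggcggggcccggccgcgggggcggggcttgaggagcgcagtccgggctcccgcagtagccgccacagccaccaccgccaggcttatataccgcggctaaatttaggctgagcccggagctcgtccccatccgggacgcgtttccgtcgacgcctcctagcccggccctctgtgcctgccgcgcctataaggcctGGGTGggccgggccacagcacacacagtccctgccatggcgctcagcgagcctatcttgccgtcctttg
Klf3 promoter, chr5:64803271-64803570, plus strand: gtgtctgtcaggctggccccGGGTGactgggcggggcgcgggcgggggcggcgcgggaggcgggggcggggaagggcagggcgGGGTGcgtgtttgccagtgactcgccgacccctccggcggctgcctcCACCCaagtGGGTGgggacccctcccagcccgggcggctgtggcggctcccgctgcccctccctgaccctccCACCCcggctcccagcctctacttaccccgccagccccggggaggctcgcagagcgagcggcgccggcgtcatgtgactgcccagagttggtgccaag

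The *Klf1* window holds CACCC upstream of a TTATC at 80 bases before the start and GGGTG at 28 bases after it. It was the 1 member window with a GATAA match. Among 32851 mouse promoter windows of the same length, 57.5% hold CACCC on either strand, 25.4% hold GATAA and 12.6% hold both. The *Klf3* window has 5 CACCC matches, as do or exceed 1.02% of all windows, and the *Klf2* window has 1, at 19 bases before the start. *Klf7* had 3 matches, *Klf13* had 1, and *Klf4* and *Klf6* had 0. The exact string CTATTTATA, taken as a MEF2 motif, was in 0 of the 7 windows and in 0.429% of all windows. Only this string and its complement were searched, so the windows may hold other forms of a MEF2 site. The E-box CANNTG was found in 5 of the 7 windows and in 72.3% of all. These are matches of letters and show no binding.

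Across the 12 populations with more than 3 cells, 6 of the 8 genes had their highest mean level in endothelium, against 27.6% of the 12193 genes that reached a mean of 10 CPM in a population. Because the members were chosen with earlier results of these data known, the contrasts with all genes in this paragraph only describe the list. *Klf2*, *Klf3*, *Klf4* and *Klf7* were highest in E10.5 Endo, and *Klf6* and *Klf10* in E8.5 Endo. *Klf1* was highest in E8.5 EryP and *Klf13* in E7.25 *Flk1*-GFP+ cells. Ranked by the share of positive cells at equal depth, 2 of the 8 were highest in endothelium alone (*Klf3* and *Klf7*). *Klf2* and *Klf10* were highest in E10.5 Mac and *Klf4* at E7.25. *Klf6* was tied at 100% of cells in E9.5 HPC, E10.5 Mac and both Endo populations. *Klf13* was tied at 100% in several populations, E8.5 Endo among them. The lineages named for *Klf3*, *Klf4* and *Klf6* were thus not those with their highest means, since *Klf3* was higher in Endo than in EryP, and *Klf4* and *Klf6* were higher in Endo than in E10.5 Mac. The index tau, which is 0 for a gene at 1 level everywhere and 1 for a gene in a single population, had a median of 0.779 over the 8 genes and 0.609 over the 12193 genes. It ran from 0.328 for *Klf13* to 0.955 for *Klf1*, with 0.869 for *Klf2*, 0.849 for *Klf7*, 0.825 for *Klf4*, 0.733 for *Klf3*, 0.680 for *Klf6* and 0.608 for *Klf10*. Of the 78 pairs of populations, the interquartile ranges over cells did not overlap in 27 for *Klf1*, 24 for *Klf7*, 20 for *Klf6*, 15 for *Klf2*, 14 for *Klf3*, 11 for *Klf13*, 8 for *Klf10* and 0 for *Klf4*. Ordered by mean, the 12 pairs of neighbouring populations overlapped in these ranges for every gene, apart from 1 pair for *Klf10*.

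**Figure D1:**
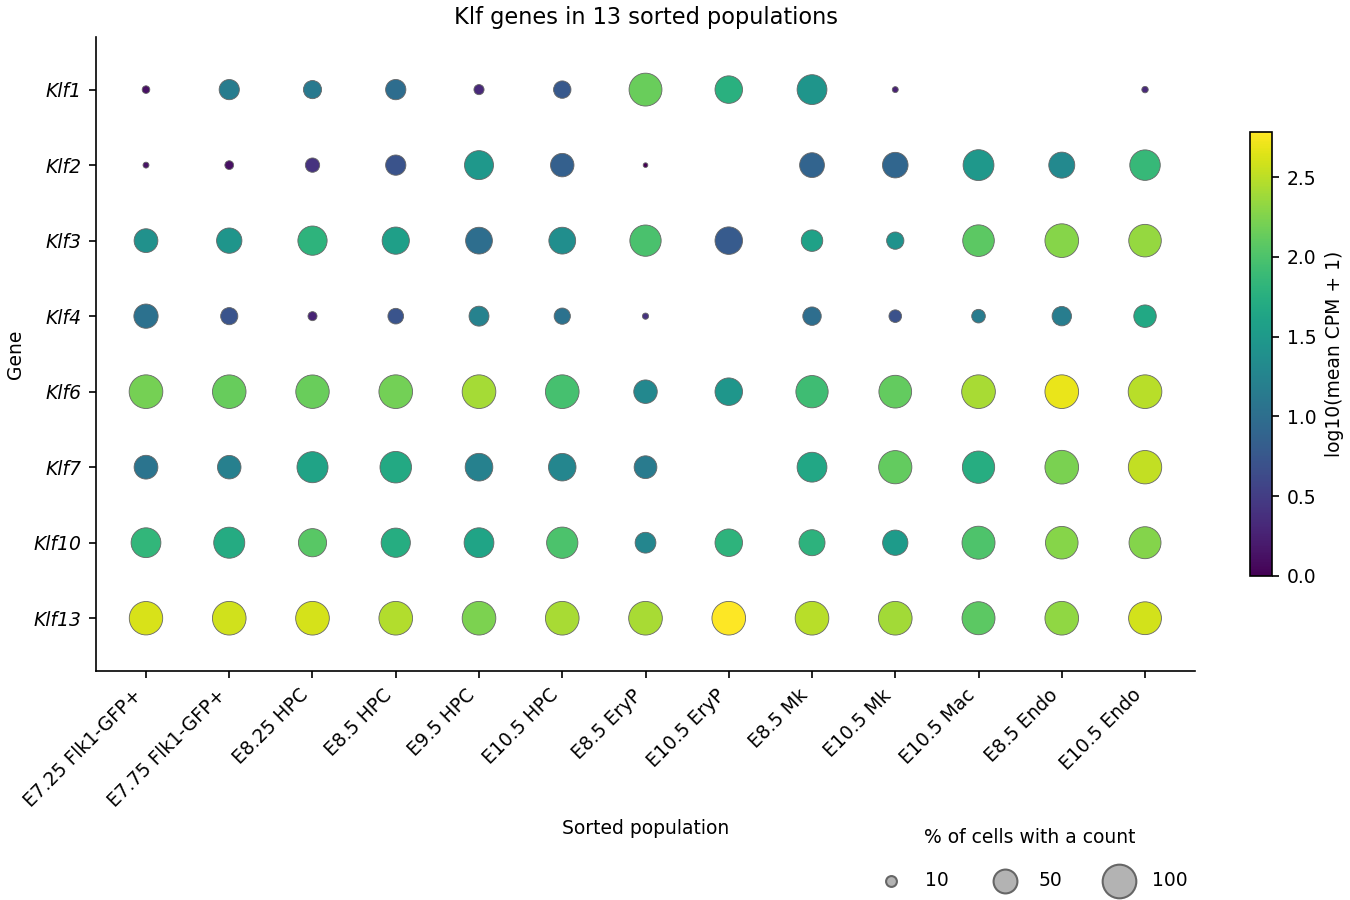
Mean level (colour, log10 of mean CPM + 1) and share of cells with a count (dot area, percent) of the 8 genes in the 13 sorted populations; no dot means no cell with a count. *Klf13* fills every column, *Klf1* stands out in EryP and E8.5 Mk, and the 2 Endo columns at the right are bright for *Klf3*, *Klf6*, *Klf7* and *Klf10*.

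Per kilobase of annotated exon, the member with the highest mean level differed between populations. It was *Klf1* in E8.5 EryP, at 91.5 CPM per kb against 34.5 for *Klf13* and 4.29 for *Klf6*. In E8.5 Endo it was *Klf6*, at 112.3 CPM per kb against 45.0 for *Klf10* and 28.0 for *Klf13*. *Klf13* led in the *Flk1*-GFP+ cells, with 54.9 CPM per kb at E7.25 and 51.2 at E7.75, ahead of *Klf6* with 36.4 and 30.7. A cell had counts of a median of 4 to 6 of the 8 genes in each population, with 6 in E10.5 Mac and in both Endo populations.

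*Klf1* was found in 63 of 66 E8.5 EryP cells (95.5%, exact 95% interval 87.3 to 99.1), with a mean of 140 CPM, a median of 114.3 CPM, an interquartile range of 41.0 to 195 CPM and a highest cell of 670 CPM. The 3 E10.5 EryP cells had a mean of 56.8 CPM and a median of 47.5 CPM. E8.5 Mk cells came next, with 29 of 37 cells positive (78.4%, 61.8 to 90.2), a mean of 27.5 CPM and a median of 17.4 CPM. The interquartile range of E8.5 EryP overlapped that of E8.5 Mk (0.661 to 49.6 CPM) and was above those of all populations but the 2 just named. In E10.5 Mk, *Klf1* was found in 2 of 73 cells (2.74%, 0.334 to 9.55) with a mean of 0.820 CPM.

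*Klf1* was nearly absent at E7.25, where 7 cells were positive (4.76%, 1.94 to 9.57) and the mean was 0.309 CPM. At E7.75, 50 of 140 cells were positive (35.7%, 27.8 to 44.3) and the mean was 13.3 CPM, with a highest cell of 197 CPM. The 2 captures of each stage gave close values, with 5.48% and 4.05% of cells at E7.25 and 35.8% and 35.6% at E7.75. In HPC the share was 28.8% (18.8 to 40.6) at E8.25, 36.0% (26.1 to 46.8) at E8.5, 8.70% (2.42 to 20.8) at E9.5 and 26.4% (17.6 to 37.0) at E10.5, and the mean levels were 12.5, 8.62, 1.08 and 4.80 CPM. The medians of the *Flk1*-GFP+ and HPC populations were all 0, so that these means came from a minority of cells. *Klf1* had no count in 79 E8.5 Endo cells or in 25 E10.5 Mac cells, and shares of up to 3.80% and 12.0% are allowed by these numbers of cells.

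**Figure D2:**
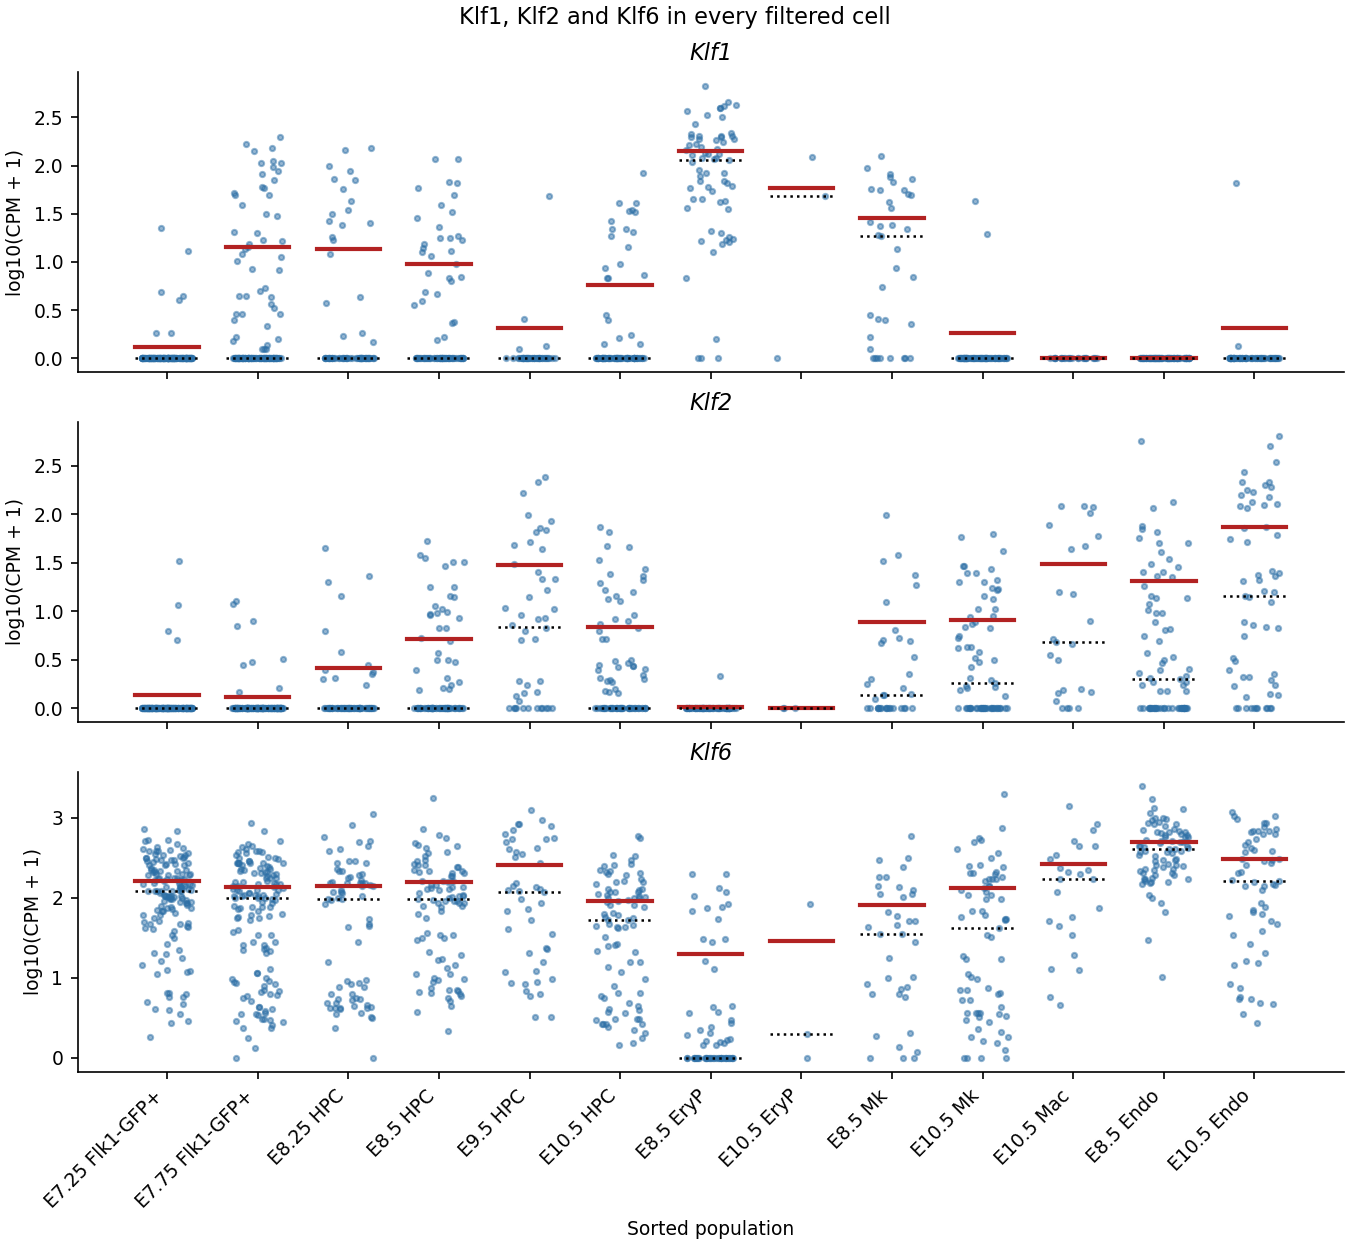
*Klf1*, *Klf2* and *Klf6* in every filtered cell (points, log10 of CPM + 1) of each population, with the mean CPM (red bar) and median CPM (dotted black bar). *Klf1* cells sit at 0 in most populations and reach a median of 114.3 CPM in E8.5 EryP, *Klf2* reaches its highest means in E10.5 Endo, E10.5 Mac and E9.5 HPC, and E8.5 EryP is the low population for *Klf6*.

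Within 4 populations, the cells with more *Klf1* had more erythroid transcripts. Spearman's rho over cells between *Klf1* and the summed CPM of 5 erythroid markers (*Alas2*, *Hbb-bh1*, *Hbb-y*, *Hba-x* and *Slc4a1*) was 0.71 in E7.75 *Flk1*-GFP+ cells, 0.61 in E8.25 HPC, 0.71 in E8.5 HPC and 0.65 in E8.5 Mk. In E8.5 EryP, where nearly every cell has *Klf1*, it was -0.09, and in E10.5 HPC it was 0.11. The E7.75 link was not with erythroid markers alone. There *Klf1* had a rho of 0.58 with the megakaryocyte markers, 0.55 with the progenitor markers and 0.01 with the endothelial markers. All 21 *Klf1*-positive E8.25 HPC cells, all 32 E8.5 HPC cells and all 29 E8.5 Mk cells had counts of *Hbb-bh1*, the embryonic β-like globin, but so did the 52, 57 and 8 cells without *Klf1*. *Gata1*, an activator of *Klf1*, was found in 47 of the 50 *Klf1*-positive E7.75 cells and in 42 of the 90 others. In E10.5 HPC, *Gata1* was found in 21 and *Hbb-bh1* in 6 of the 23 *Klf1*-positive cells. Among the cells without *Klf1*, 34 had *Gata1* and 30 did not, and 4 had *Hbb-bh1* and 60 did not.

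The genes that went against *Klf1* differed between stages. At E7.75 rho was -0.62 with 6 mesoderm markers (*Mesp1*, *Mixl1*, *T*, *Pdgfra*, *Foxf1* and *Lef1*), -0.52 with *Klf6* and -0.37 with *Klf3*. In HPC it was -0.47 at E8.25 and -0.41 at E8.5 with 7 endothelial markers. In E8.5 Mk it was -0.50 with the 5 megakaryocyte markers, and in E10.5 HPC 0.40 with the same list and -0.39 with 4 macrophage markers. These correlations are over cells of 1 sample, share each cell's size factor and are given as a description.

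**Figure D3:**
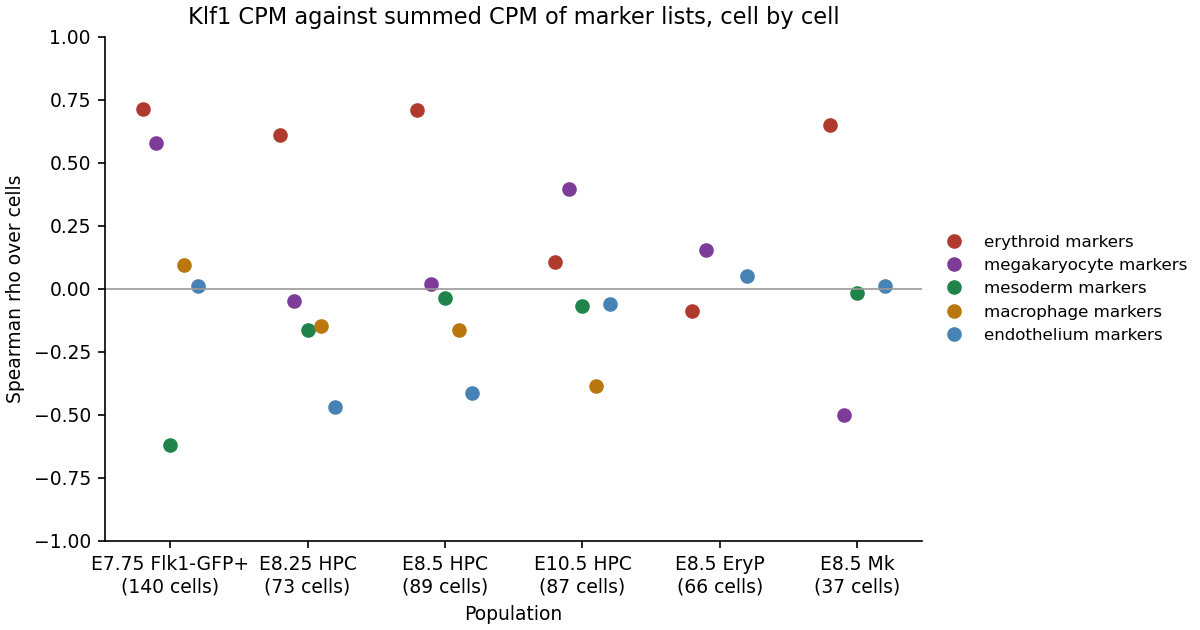
Spearman's rho over cells between *Klf1* CPM and the summed CPM of 5 marker lists in the 6 populations with at least 20% of cells positive for *Klf1*. Erythroid markers (red) stand between 0.61 and 0.71 in 4 populations and near 0 in E10.5 HPC and E8.5 EryP, and a list without a point had no count in that population.

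Of 22 genes listed as dependent on *Klf1* in erythroid cells, 20 are in the filtered table. Most of them were higher in E8.5 EryP and E8.5 Mk than in E8.5 HPC, as was *Klf1*. Their erythroid members are also markers by which EryP are known. Against E8.5 HPC, 17 of the 20 were at least 2-fold higher in E8.5 EryP and 1 was lower. Of all genes, 26.7% differed by 2-fold in either direction. The median log2 ratio of mean CPM + 1 was 3.88 beside 0.05 over all genes tested. In E8.5 Mk, 16 of 18 with a mean of 10 CPM were higher and 1 was lower (median 2.07), where 17.4% of all genes differed. *Alas2*, the first enzyme of haem synthesis in red cells, had means of 38.1 CPM in E8.5 HPC, 1394 CPM in E8.5 EryP and 356 CPM in E8.5 Mk. *Epb42*, a membrane skeleton protein, had 5.75, 260 and 37.3 CPM, and *Slc4a1*, the red cell anion exchanger, 0, 199 and 6.20 CPM. The gene that was lower was *Bcl11a*, a repressor of embryonic globin genes, at 59.9 CPM in E8.5 HPC, 13.5 CPM in E8.5 EryP and 0.0288 CPM in E8.5 Mk. E10.5 Mk were at least 2-fold below E8.5 Mk for 14 of 17 of these genes, where 29% of all genes differed in either direction. The median log2 ratio was -3.70 beside -0.05 over all genes, while *Gata1* was at 392 CPM in E8.5 Mk and 457 CPM in E10.5 Mk. Other comparisons did not follow *Klf1*. Against E10.5 HPC, E10.5 Mk were higher for 8 of 12 and lower for 1 (median 1.345), where 26.7% of all genes differed. *Klf1* was at 0.820 CPM in E10.5 Mk and 4.80 CPM in E10.5 HPC. Between the E7.75 captures, with *Klf1* at 13.2 and 13.4 CPM, 6 of 12 were lower in lane 8 and 1 was higher, where 8.63% of genes differed.

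*Klf3* was found in all 79 E8.5 Endo cells (interval 95.4 to 100%), at a mean of 190 CPM and a median of 117.2 CPM, and in 57 of 61 E10.5 Endo cells (93.4%, 84.1 to 98.2) at 221 and 111.6 CPM. E10.5 Mac had a mean of 120 CPM but a median of 12.0 CPM in 22 of 25 positive cells. E8.5 EryP had 57 of 66 positive cells (86.4%, 75.7 to 93.6), a mean of 95.0 CPM and a median of 43.4 CPM. The HPC means were 62.7 CPM at E8.25, 35.7 CPM at E8.5, 8.99 CPM at E9.5 and 22.2 CPM at E10.5, with 63.0 to 75.3% of cells positive. Mk cells had the lowest shares, with 15 of 37 at E8.5 (40.5%, 24.8 to 57.9) and 19 of 73 at E10.5 (26.0%, 16.5 to 37.6), and medians of 0. The E10.5 Mk mean of 24.6 CPM rested on few cells, as the highest cell had 1465 CPM and the top 7 cells held 93.2% of the sum. The interquartile range of E8.5 Endo, 51.4 to 257 CPM, overlapped that of E8.5 EryP, 7.84 to 124.7 CPM.

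*Klf2* had its highest mean in E10.5 Endo, at 72.3 CPM with a median of 13.3 CPM and a highest cell of 647 CPM, in 50 of 61 positive cells (82.0%, 70.0 to 90.6). E8.5 Endo had 19.7 CPM and a median of 0.997 CPM in 47 of 79 cells (59.5%, 47.9 to 70.4), and 1 of these cells had 575 CPM. E10.5 Mac and E9.5 HPC had means of 29.7 and 29.2 CPM and were positive in 21 of 25 cells (84.0%, 63.9 to 95.5) and 34 of 46 cells (73.9%, 58.9 to 85.7). In HPC the share was 17.8% (9.84 to 28.5) at E8.25 and 36.0% (26.1 to 46.8) at E8.5 and stood at 48.3% (37.4 to 59.3) at E10.5, where the mean was 5.88 CPM. *Klf2* was found in 1 of 66 E8.5 EryP cells and in 4 E7.25 and 9 E7.75 cells. The interquartile range of E10.5 Endo, 0.719 to 120 CPM, overlapped those of E8.5 Endo, E9.5 HPC and E10.5 Mac.

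The 4 genes listed as targets of *Klf2* in endothelium were all at least 2-fold above HPC in Endo at both stages, where 28.3% (E8.5) and 50.8% (E10.5) of all genes differed in either direction. *Nos3*, the endothelial nitric oxide synthase, had means of 55.8 CPM in E8.5 Endo and 60.4 CPM in E10.5 Endo, beside 4.52 and 0.377 CPM in the HPC of those stages. *Thbd* (thrombomodulin), an anticoagulant receptor, had 89.6 and 368 CPM in Endo. It was the 1 of the 4 that differed at least 2-fold between the stages, where 37.5% of all genes did. The 2 stages were on different flow cells. *S1pr1*, a sphingosine 1-phosphate receptor, had 265 and 206 CPM, and *Edn1* (endothelin) 29.8 and 49.9 CPM. E10.5 Mac and E9.5 HPC, with *Klf2* at 29.7 and 29.2 CPM, had 0 and 0.503 CPM of *Nos3* and 8.62 and 0.344 CPM of *Thbd*. Over cells, rho between *Klf2* and the summed targets was -0.06 to 0.20 in the 8 populations with *Klf2* in at least 20% of cells. Over the 12 populations with more than 3 cells, r with the log2 sum of these targets was 0.65 for *Klf2*. It was 0.79 for *Klf10*, 0.77 for *Klf7*, 0.73 for *Klf6*, 0.46 for *Klf3* and *Klf4*, 0.07 for *Klf13* and -0.51 for *Klf1*. The list does not say which targets *Klf2* raises and which it lowers, so a high level shows no action of *Klf2*. Of 11 genes of the flow pathway, 3 were at least 2-fold higher in E8.5 Endo than in E8.5 HPC (*Map3k3*, *Heg1* and *Piezo1*) and 7 in E10.5 Endo than in E10.5 HPC, against the same 28.3% and 50.8% of all genes. *Mef2c*, a transcription factor at the end of the cascade, was lower in Endo at both stages, and *Map2k5*, the kinase MEK5, was lower at E10.5. *Heg1*, which holds the CCM proteins at junctions, had 106.6 CPM in E8.5 Endo and 342 CPM in E10.5 Endo, and *Piezo1*, a mechanosensitive channel, 48.1 and 46.6 CPM.

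*Klf4*, a factor of endothelium and of monocytes, had its highest mean in E10.5 Endo, at 45.4 CPM in 27 of 61 cells (44.3%, 31.6 to 57.6), with a median of 0 and a highest cell of 686 CPM. E9.5 HPC had 16.1 CPM (34.8% of cells), E8.5 Endo 13.9 CPM (32.9%) and E10.5 Mac 13.2 CPM in 4 of 25 cells (16.0%, 4.54 to 36.1). The largest share was at E7.25, 76 cells (51.7%, 43.3 to 60.0) with a mean of 10.1 CPM. It was 25.7% (18.7 to 33.8) at E7.75 with 4.25 CPM, and 6.85% (2.26 to 15.3) in E8.25 HPC with 0.889 CPM. The E7.25 captures differed, with 61.6% of cells and 14.0 CPM in lane 6 and 41.9% and 6.15 CPM in lane 7, and the E7.75 captures had 20.8% and 28.7% of cells. *Klf2* and *Klf4* were found together in 25 of the 27 *Klf4*-positive E10.5 Endo cells and in 18 of the 26 at E8.5, and *Klf2* was found in 25 of the other 34 and 29 of the other 53 cells. Over all cells, Spearman's correlation of *Klf2* with *Klf4* was 0.23 at E10.5 and 0.24 at E8.5.

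*Klf6* was found in at least 91.9% of the cells of every population except EryP. The mean was 493 CPM in E8.5 Endo, with a median of 402 CPM and an interquartile range of 220 to 646 CPM, and 304 CPM in E10.5 Endo, with a median of 162 CPM. E10.5 Mac had 265 CPM and E9.5 HPC 256 CPM, with medians of 173 and 118.1 CPM. The *Flk1*-GFP+ cells and the E8.25 and E8.5 HPC lay between 134.8 and 159.9 CPM, and the E10.5 HPC at 90.1 CPM. In E8.5 EryP, 32 of 66 cells were positive (48.5%, 36.0 to 61.1) and the mean was 18.8 CPM, with a median of 0. The interquartile range of E8.5 EryP, 0 to 3.16 CPM, did not overlap that of either Endo population. Over the 12 populations, the log2 means of *Klf6* and *Klf1* had a Pearson r of -0.86, and within HPC *Klf6* went against the 20 *Klf1*-dependent genes at E8.25 (rho -0.51) and E9.5 (-0.54), with -0.27 at E8.5 and -0.11 at E10.5. At E8.25 it went with the endothelial markers (0.57) and with *Klf7* (0.47), and at E9.5 with the macrophage markers (0.41).

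The immediate early genes, which are induced within minutes by growth factors and by handling of cells, moved with part of these levels. Their summed mean over 11 genes (*Fos*, *Fosb*, *Jun*, *Junb*, *Egr1*, *Atf3*, *Ier2*, *Ier3*, *Zfp36*, *Dusp1* and *Btg2*) was 142.7 to 241.2 CPM in the *Flk1*-GFP+ cells and the E8.25 and E8.5 HPC, 543 CPM in E9.5 HPC, 382 CPM in E10.5 HPC, 419 CPM in E8.5 EryP, 438 CPM in E8.5 Endo, 888 CPM in E10.5 Endo, 741 CPM in E10.5 Mac, 689 CPM in E8.5 Mk and 913 CPM in E10.5 Mk. Over the 12 populations, r with the log2 sum was 0.74 for *Klf2*, 0.59 for *Klf7*, 0.49 for *Klf4*, 0.28 for *Klf3*, 0.13 for *Klf6*, 0.060 for *Klf10*, -0.24 for *Klf1* and -0.53 for *Klf13*. E8.5 EryP stood apart, with a sum near that of E8.5 Endo and means of 0.0175 CPM of *Klf2*, 1.57 CPM of *Klf4* and 18.8 CPM of *Klf6*. The Mk populations also lay low for *Klf2*. E10.5 Mk had the highest sum of the 12 but 7.1 CPM of *Klf2*, beside 72.3 CPM in E10.5 Endo. E8.5 Mk had 6.7 CPM of *Klf2*, beside 19.7 CPM in E8.5 Endo, which had a lower sum. Over cells, rho with the sum was positive for *Klf2* in all 8 populations with enough positive cells (0.02 to 0.54, the highest in E9.5 HPC), for *Klf4* in 7 of 8 (-0.03 to 0.29) and for *Klf6* in 10 of 12 (-0.18 to 0.42). For *Klf10* it was positive in 8 of 12 (-0.22 to 0.28). How far dissociation, stage or flow cell bear on *Klf2*, *Klf4* and *Klf6* was not tested.

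**Figure D4:**
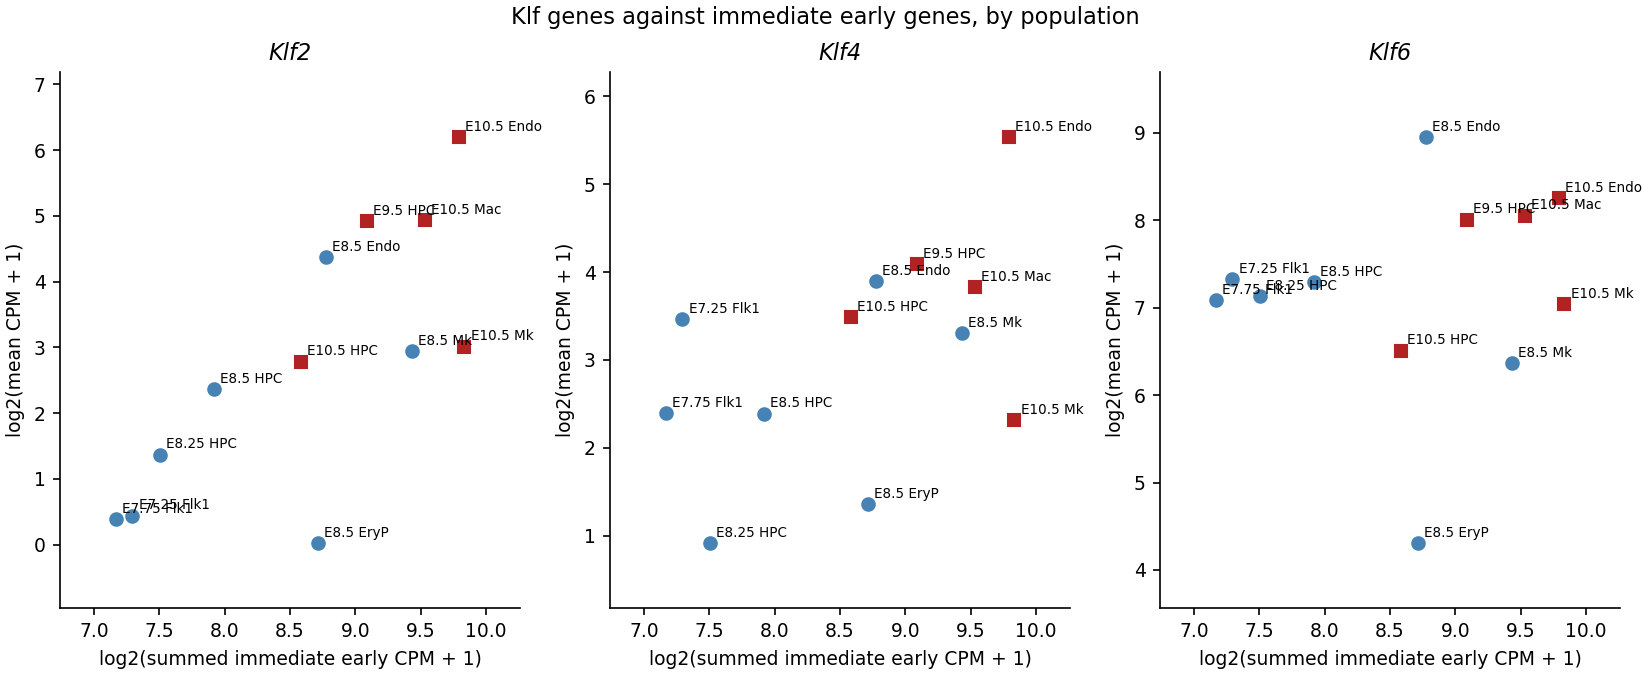
Mean level of *Klf2*, *Klf4* and *Klf6* (log2 of mean CPM + 1) against the summed mean of 11 immediate early genes (log2 of CPM + 1) in the 12 populations with more than 3 cells, with E9.5 and E10.5 as red squares and earlier stages as blue circles. The *Klf2* points rise with the sum (r 0.74), with E8.5 EryP and both Mk populations lying low, whereas the *Klf6* points do not line up (r 0.13).

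*Klf7* had means of 168 CPM in E8.5 Endo, where all 79 cells were positive, and 333 CPM in E10.5 Endo, where the medians were nearer, at 138.6 and 157.6 CPM, and 1 cell had 4031 CPM. E10.5 Mk had 128.6 CPM with a median of 86.1 CPM in 71 of 73 cells (97.3%, 90.5 to 99.7), against 44.4 CPM with a median of 15.9 CPM in E8.5 Mk. HPC had the opposite order, with 40.6 CPM at E8.25 and 47.4 CPM at E8.5 beside 15.3 CPM at E9.5 and 17.9 CPM at E10.5. The *Flk1*-GFP+ cells had 10.9 CPM at E7.25 and 15.0 CPM at E7.75, and E8.5 EryP had 13.0 CPM, each with a median of 0. The interquartile range of E8.5 Endo, 80.8 to 211 CPM, was above those of all 4 HPC populations.

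*Klf10* had means of 188 CPM in E8.5 Endo and 182 CPM in E10.5 Endo, with medians of 127.3 and 75.0 CPM. E8.25 HPC had 112.9 CPM, E10.5 Mac 100.2 CPM and E10.5 HPC 97.5 CPM, with medians of 26.9, 18.6 and 47.2 CPM. It was lowest in E8.5 EryP, at 18.0 CPM in 25 of 66 cells (37.9%, 26.2 to 50.7). The 2 E7.25 captures had 82.9 and 50.3 CPM, and those of E7.75 had 65.5 and 39.0 CPM.

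*Klf13* was the evenly expressed member, with counts in at least 95.1% of the cells of every population. Means ran from 121.2 CPM in E10.5 Mac to 413 CPM at E7.25, with 607 CPM in the 3 E10.5 EryP cells. In E10.5 Mac the median was 19.7 CPM, far under the mean, and in E8.25 HPC 1 cell of 7122 CPM stood beside a median of 267 CPM. In E8.5 EryP it went with *Klf1* over cells, with a rho of 0.52, the highest among the 243 pairs of members within populations. Those 243 values had a median of 0.07 and were positive in 163, and the lowest was the -0.52 of *Klf1* and *Klf6* at E7.75.

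Between stages, a gene was compared where its mean was at least 10 CPM in either population. From E7.25 to E7.75, 2 of 7 did, *Klf1* upward (log2 ratio 3.45) and *Klf4* downward (-1.07), where 10.4% of the 8888 genes compared differed by 2-fold in either direction. The 2 captures of E7.25 differed by 2-fold for 1 of 6 members (*Klf4*, -1.07) and 6.52% of genes, and those of E7.75 for 0 of 6 and 8.63%. *Klf4* thus had a like log2 ratio between the stages and between the captures of E7.25, and without the cells that hold transcripts of both sexes its stage ratio was -0.84. Without the highest cell of each population, an alternative chosen after seeing the data, its mean did not reach 10 CPM at either stage. From E8.25 to E8.5, HPC differed in 1 of 6 (*Klf10*, -1.10), with 6.68% of genes, and without the cells that hold transcripts of both sexes this ratio was -0.83 and that of *Klf3* -1.01. Without the highest cells the ratio of *Klf10* was -0.95. From E9.5 to E10.5 they differed in 4 of 7, with *Klf2* (-2.13) and *Klf6* (-1.50) lower and *Klf3* (1.22) and *Klf10* (1.22) higher, where 14.6% of genes did. From E8.5 to E10.5, HPC differed in 2 of 6, *Klf4* (1.10) and *Klf7* (-1.36), with 21% of genes. The *Klf4* mean of 10.2 CPM in E10.5 HPC rested on 1 cell of 437 CPM, without which it was 5.28 CPM, under the minimum, and without the highest cell of both populations the ratio was 0.46.

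Mk cells differed between E8.5 and E10.5 in 2 of 6 members, where 29% of genes did. *Klf1* was lower (27.5 and 0.820 CPM, log2 ratio -3.97) and *Klf7* higher (1.51). Without the cells that hold transcripts of both sexes, the ratio of *Klf7* was 0.97 and that of *Klf10* was -1.30. Endo cells differed in 2 of 7, *Klf2* (1.83) and *Klf4* (1.64), a share below the 37.5% of all genes, and *Klf7* came close (0.98). By medians in place of means, the 2 were *Klf2* and *Klf6*. The *Klf6* median was 402 CPM at E8.5 and 162 CPM at E10.5, and the *Klf4* median was 0 at both. Without the cells that hold transcripts of both sexes, the Endo ratios were 0.55 for *Klf4*, 2.08 for *Klf2* and 1.28 for *Klf7*, which then passed 2-fold. EryP differed in 5 of 6 members, but the 3 E10.5 cells also differed from E8.5 in 67.3% of all genes, with a median log2 ratio of -1.11. Without the cells that hold transcripts of both sexes, *Klf7* in EryP did not reach the minimum of 10 CPM. Over all 25 captured E10.5 EryP cells and CPM by total count, the ratios of *Klf10* and *Klf13* changed sign.

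Lineages of the same stage and flow cell were compared with the HPC. Each lineage was on another lane than its HPC, so lineage and lane cannot be told apart. In E8.5 Endo, 6 of 7 members were at least 2-fold above E8.5 HPC (log2 ratios from 1.51 for *Klf4* to 2.38 for *Klf3*), where 28.3% of genes differed in either direction, 1689 of 9433 upward. Without the cells that hold transcripts of both sexes, *Klf2* no longer reached a mean of 10 CPM in either population and its ratio was 1.12. Over all captured cells and CPM by total count it was 0.64, and the 1 E8.5 HPC cell added there had 583 CPM of *Klf2*. E10.5 Endo was above E10.5 HPC for 5 of 7 members, with *Klf7* (4.14), *Klf2* (3.41) and *Klf3* (3.26) the furthest, where 50.8% of genes differed. *Klf10* (0.89) and *Klf13* (0.57) were under 2-fold, and *Klf10* was at 1.51 without the cells that hold transcripts of both sexes. E10.5 Mac differed in 5 of 7, with *Klf3* (2.38), *Klf2* (2.16), *Klf6* (1.54) and *Klf7* (1.51) higher and *Klf13* (-1.12) lower, where 46.8% of genes differed. Without the cells that hold transcripts of both sexes, *Klf13* was at -0.93, and without the highest cells *Klf7* was at 0.79.

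E8.5 EryP differed from E8.5 HPC in 5 of 6 members, with *Klf1* (3.87) and *Klf3* (1.39) higher and *Klf6* (-2.98), *Klf7* (-1.79) and *Klf10* (-1.48) lower, where 26.7% of genes differed. Over all captured cells and CPM by total count, the ratio of *Klf3* was 0.80. E8.5 Mk differed from E8.5 HPC in 1 of 6 (*Klf1*, 1.57), with 17.4% of genes. E10.5 Mk differed from E10.5 HPC in 3 of 6, with *Klf7* (2.78) higher and *Klf10* (-1.57) and *Klf4* (-1.18) lower, with 26.7% of genes. The *Klf4* call rested on the same E10.5 HPC cell. Without the highest cells, *Klf3* in E10.5 Mk was at -1.89 against E10.5 HPC and -2.39 against E8.5 Mk. In the comparisons that share the E8.5 HPC or the E10.5 HPC as reference, the ratios are not independent of each other.

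**Figure D5:**
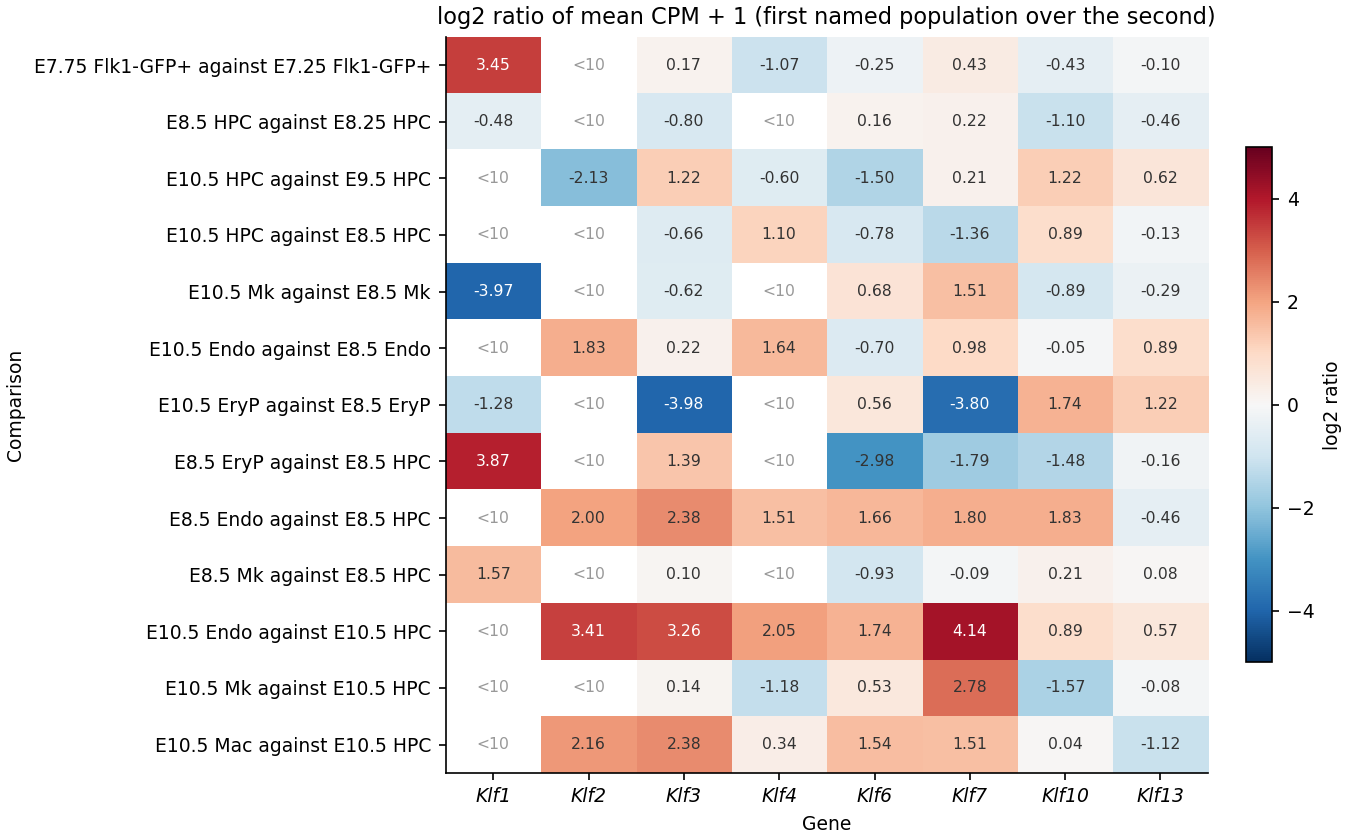
log2 ratio of mean CPM + 1 for each gene (columns) in 13 comparisons (rows), with red for higher and blue for lower in the population named first and "<10" where neither mean reached 10 CPM. The 2 rows of Endo against HPC are red for *Klf2*, *Klf3*, *Klf4*, *Klf6* and *Klf7*, the last with 4.14 at E10.5, and *Klf1* is red at E7.75 (3.45) and in E8.5 EryP (3.87) and blue in E10.5 Mk (-3.97).

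Of the other members of the family, 8 *Klf* and 5 *Sp* genes are in the filtered table, and 3 of these 13 reached a mean of 50 CPM in a population. *Klf14* had 16.2 CPM at E7.25 and 58.3 CPM at E7.75, and was next highest in E10.5 Endo, at 37.9 CPM. It was also at least 2-fold higher in lane 7 than in lane 6 of E7.25, and the 2 stages were on different flow cells. *Sp1* and *Sp3*, which bind GC boxes throughout the genome, were found in all lineages, with *Sp1* between 67.0 CPM in E10.5 Mac and 330 CPM in E8.5 Mk and *Sp3* between 41.2 CPM in E10.5 Mk and 120 CPM in E10.5 Mac among the populations with more than 3 cells. In Endo against HPC, 3 of 7 relatives were at least 2-fold higher at E8.5 (*Klf8*, *Klf14* and *Klf16*) and 3 of 6 at E10.5 (again *Klf8*, *Klf14* and *Klf16*), with 0 and 1 (*Sp2*) lower, where 28.3% and 50.8% of all genes differed. Of 8 co-regulators, *Ctbp1* and *Ctbp2*, the partners of *Klf3*, had 22.6 and 43.9 CPM in E8.5 Endo, 42.9 and 150.7 CPM in E10.5 Endo, 40.1 and 6.71 CPM in E8.5 EryP and 120 and 67.0 CPM in E10.5 Mac.

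Among the 7222 genes with a mean of 50 CPM in a population, those with the profile most like each member over the 12 populations were found by Pearson's r of log2 mean CPM + 1. For *Klf1* they were *Slc30a10* (0.95), *Epb42* (0.94) and *Slc38a5* (0.94), and for *Klf2* *Elf4* (0.92), *S100a13* (0.91) and *Slc35d2* (0.91). *Klf3* was most like *Cltc* (0.95) and *Insig1* (0.91), and *Klf4* most like *Fam120b* (0.88), *Ankrd12* (0.87) and *Rhob* (0.86). For *Klf6* the first was *Map3k3* (0.95), the kinase MEKK3 of the flow cascade, followed by *Sptlc2* (0.95) and *Ckap4* (0.93). *Klf7* was most like *Krcc1* (0.96), *Ap2s1* (0.95) and *Cdc42ep2* (0.94), *Klf10* most like *Rapgef5*, *Hook3* and *Osbpl11* (all 0.91), and *Klf13* most like *Twsg1* (0.97), *Rnf2* (0.91) and *Melk* (0.89). Among the members themselves, the most alike were *Klf2* and *Klf4* (0.79), *Klf6* and *Klf10* (0.73), *Klf2* and *Klf6* (0.68) and *Klf2* and *Klf7* (0.68).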

How the data were processed

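Single cells of 13 sorted yolk sac populations were analysed. The authors captured them on the Fluidigm C1, sequenced Nextera XT libraries as paired ends of 100 bases, used Rsubread for alignment to GRCm38 with Ensembl release 84, and made read count values per gene with featureCounts (Subread). The authors filtered these counts with scater and made the deposited signal values, CPM scaled by scran size factors. No alignment was repeated, and tool versions are not given in the sources used here.

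The level of a gene is its mean CPM in a population, and ratios are log2 of mean CPM + 1 for genes with a mean of 10 CPM in either population, called at 2-fold. No test between populations was made, because each is 1 sample. Shares of cells are at 1 count or more, with exact Clopper-Pearson 95% intervals, and a share with no positive cell allows 3 cells of the total. These cover counting error only. C1 sites were imaged by the authors, and no doublet caller was run. No 2 filtered cells shared a lane and an index pair, and the 96 index pairs recur between lanes. Cells in which *Xist*, and also 4 Y-linked genes together, reached 5 counts were taken as holding transcripts of both sexes. Named genes were all members, other *Klf* and *Sp* genes with a mean of 50 CPM in a population, the 3 genes most like each member, and fixed lists of *Klf1*-dependent genes, *Klf1* regulators, flow genes, *Klf2* targets, co-regulators and immediate early genes. Genes of these lists with no value in the text were counted, and some named genes are not reported here. The members and lists were chosen with earlier results of these data known. *Ahsp* and *Aqp1* are the 2 listed *Klf1*-dependent genes outside the filtered table. Gene positions and exon lengths are from GENCODE M21 (GRCm38). Alternatives were another scaling, medians, other pseudocounts and minimums, all captured cells, single captures, cells without both-sex transcripts, means without the highest cell and counts thinned to 840000 per cell, which leaves out 46 cells. The methods were checked on simulated data. The tools were scipy 1.17.1, pandas 2.3.3, numpy 2.4.6, matplotlib 3.10.9 and Python 3.11.15.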

Additional observations from a re-analysis of the deposited data

Results flagged for a closer look

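*Klf7* differed in opposite directions in 2 lineages between E8.5 and E10.5. In Mk the mean was 44.4 CPM at E8.5 and 128.6 CPM at E10.5 (log2 ratio 1.51), and in HPC it was 47.4 and 17.9 CPM (-1.36), a difference of 2.87 between the ratios. The difference was not tested, since each population is 1 sample, and in both lineages the stages were read on different flow cells and sorted with different gates. Without cells with transcripts of both sexes, the Mk ratio was 0.97.

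*Klf1* was also seen in captured cells outside the filtered table. Of the 22 such E10.5 EryP cells, 8 had a count (36.4%, exact 95% interval 17.2 to 59.3), with a mean of 17.0 CPM by total count and total counts of 27656 to 3606368. Of the 18 such E8.5 EryP cells, 4 had a count (22.2%, 6.41 to 47.6).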

How the results depend on the processing

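The count of Klf genes at least 2-fold apart depended mostly on the minimum level. With a minimum of 100 CPM in place of 10 it was 0 (from 2) for E7.75 against E7.25, 1 (from 4) for E10.5 against E9.5 HPC, 0 (from 2) for E10.5 against E8.5 HPC, 1 (from 2) for Mk and 0 (from 2) for Endo between these stages, 2 (from 5) for EryP, 2 (from 5) for E8.5 EryP, 0 (from 1) for E8.5 Mk, 3 (from 5) for E10.5 Endo, 1 (from 3) for E10.5 Mk and 3 (from 5) for E10.5 Mac against HPC, because fewer genes were compared. With no minimum, E8.5 against E8.25 HPC gave 2 (from 1). For E7.75 against E7.25 the count was 1 by total count, with a pseudocount of 10, over all captured cells, without cells with transcripts of both sexes, with E7.25 lane 7 alone and with E7.75 lane 8 alone, and 0 by medians; *Klf1* was the gene kept in each that gave 1. A pseudocount of 10 gave 0 for E8.5 against E8.25 HPC and 1 for E10.5 against E8.5 HPC. A count could also stay while its genes changed. For E8.5 against E8.25 HPC the 1 gene was *Klf3* by medians and *Klf2* over all captured cells, in place of *Klf10*. Medians gave 2 for E10.5 against E9.5 HPC and 3 for E8.5 Mk against HPC, which gave 2 by total count and over all captured cells. Over all captured cells the E10.5 against E8.5 EryP ratio changed sign for *Klf10* (-1.01) and *Klf13* (-2.57), with 22 cells added to 3 at E10.5 and 18 to 66 at E8.5. Ranked by the share of positive cells at equal depth, 2 Klf genes were highest in Endo alone in place of 6. *Klf6* and *Klf13* were tied at 100% between Endo and other populations. Of the 24 most similar genes, 4 remained by Spearman and 12 over 13 populations. The median tau was 0.347 on log2 means. Without the highest cell of each population, chosen after seeing the data, the count was 1 for E7.75 against E7.25, 0 for E8.5 against E8.25 HPC, 1 for E10.5 against E8.5 HPC and 2 for E8.5 Mk against HPC. Of the log2 ratios, 2 moved by total count, 11 without both-sex cells, 9 without the highest cells, 24 with a pseudocount of 10 and 57 by medians, and 16 moved and 2 changed sign over all captured cells. The cause of these changes was otherwise not tested. No leave-one-out value was made, since each population is 1 sample.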
